A study of Mus musculus with 6 samples.

Results

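The comparison described here is the loss of Nrdp1 in stimulated CD8+ T cells. It sets the Nrdp1-/- arrays taken at 4 h and 8 h of stimulation against the Nrdp1+/+ arrays of the same times. These are 4 of the 6 arrays of the study, chosen by their titles, with 2 arrays for each genotype and 1 array for each genotype and time. The remaining 2 arrays, untreated cells of either genotype, were left out of the comparison and serve only as the resting values. All arrays are labelled as naive CD8+ T cells from mouse spleen, strain C57/BL6, and the genotypes are wild type (Nrdp1+/+) and Nrdp1-/-. The stimulated cells received anti-CD3 at 5 µg/ml fixed to a surface together with soluble anti-CD28 at 1 µg/ml. The labels give neither the age of the mice, nor the allele, nor how many mice gave each RNA. The p-values therefore do not measure a spread between mice. They rest on how far the genotype differences at 4 h and 8 h disagree, taken over genes of like brightness. RNA was labelled with biotin and hybridised to Affymetrix expression arrays, whose probe sets lie near the 3' ends of transcripts. The question posed by the design is which transcripts of activated CD8+ T cells differ when this ligase is missing.

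Nrdp1, encoded by Rnf41, is a RING-type E3 ubiquitin ligase, an enzyme that attaches ubiquitin to chosen proteins. Work on this ligase in CD8+ T cells has centred on Zap70, the kinase that relays the T cell receptor signal, and on the phosphatases Ubash3a and Ubash3b. Antibodies to CD3 engage the receptor complex and antibodies to CD28 give the costimulatory signal. Within hours, calcium and kinase pathways act on factors of the NFAT, AP-1, NF-kB and Egr families, and the cell starts to make cytokines, chemokines and the granzymes and perforin with which cytotoxic T cells kill.

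Signals are given as MAS5 signal, a linear brightness for which the authors had brought each array to the same trimmed mean. The array median was between 61.5 and 68.6 on the stimulated arrays. Differences are Nrdp1-/- minus Nrdp1+/+ on the scale log2(signal + 4.45), with the standard error (SE) from limma on 4 arrays in which time was a block. A gene is called where its Benjamini-Hochberg adjusted p was at or under 0.05 over all 10463 genes tested. By this rule 2.70% of all tested genes were called higher in Nrdp1-/- and 2.67% lower, the shares to set beside the list counts below. With 1 residual degree of freedom, limma estimated the spread of a gene from its brightness alone, so a gene whose own 2 differences disagree can still be called. Calls from limma without this intensity trend, in which the gene's own spread counts, are therefore given beside the main groups. A paired permutation test over 2 pairs cannot go under an exact p of 0.5. Where both arrays of a genotype lay below the array median, a bound is also given, taken against that median ("at least N-fold").

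Rnf41 itself is a check of the genotypes. Its brightest probe set of 4 read 505 and 639 on the Nrdp1+/+ arrays at 4 h and 8 h, and 437 and 477 on the Nrdp1-/- arrays. Both knockout values lay below both wild-type values, but the difference of -0.31 ± 0.18 was not called (adjusted p = 0.480). A second probe set read 166 and 161 in wild type against 70.9 and 83.7 in Nrdp1-/-, a difference of -1.04. Another gave a difference of 0.07, and the last was near or below the array median. Which exons the allele removes is not given in the sources used here, so whether a probe set lies in the deleted part was not tested, and the array does not settle the genotype labels.

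The labelled cell type was set against its markers. The 9 measured markers of CD8+ T cells, among them Cd8a, Cd8b1, Cd3e and Thy1, had summed signals of 83222 and 77540 in wild type and 84748 and 74691 in Nrdp1-/- at 4 h and 8 h. None of the 9 was called, and their median difference was 0.11. Of 6 markers of CD4+ and regulatory T cells, Cd4, Foxp3 and Cd40lg were below the array median on all 4 arrays. The others were not: Ikzf2 read 2510 and 2089 in wild type and 2118 and 1782 in Nrdp1-/-. Zbtb7b, nearer the median, read 61.5 and 102 against 63.9 and 107. Il2ra, also a gene of activated CD8+ T cells, was called higher and is described below. In the labels, the text on RNA extraction speaks of colon, in conflict with the titles. On every stimulated array, 9 of 13 markers of colon epithelium and smooth muscle, Vil1, Krt20 and Muc2 among them, were below the array median. Of the others, Epcam read 406 and 341 in wild type and 185 and 173 in Nrdp1-/-. It was called lower (difference -1.04 ± 0.24), but not without the trend. Lgals4 read 271 and 272 against 340 and 328, and Des and Acta2 were above the array median on some arrays only. Xist was bright and Kdm5d, Eif2s3y and Uty were below the array median on all 4.

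Markers of other cells differed between the genotypes. Of 13 tested B cell markers, 11 were lower in Nrdp1-/-, 1 was higher and the median difference was -1.81. Ms4a1, which encodes the B cell surface protein CD20, read 2346 and 2914 in wild type and 262 and 255 in Nrdp1-/- (difference -3.32 ± 0.16). H2-Aa, a chain of MHC class II, read 4777 and 4662 against 879 and 917 (difference -2.39 ± 0.14). The knockout values were about as far below wild type at 4 h as at 8 h, with list medians of -1.81 at both times and -1.87 in untreated cells. Limma without the trend also called 8 of the 11. Ighm, the heavy chain of immunoglobulin M, was the member that went the other way (difference 0.52 ± 0.14). Ighm was so bright that it dominated the summed signal of the 16 B cell markers on the array, which was 34382 and 35002 in wild type and 35284 and 25687 in Nrdp1-/-. Without Ighm the sum was 15871 and 16372 against 3526 and 3456. Pax5, Fcer2a and Cr2 were below the array median on all 4 arrays.

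Markers of plasma cells, which secrete antibody, moved in both directions. Of 6 tested, 2 were higher and 1 was lower. Jchain, the chain that joins secreted immunoglobulins, read 3768 and 2738 in wild type and 10429 and 9001 in Nrdp1-/- (difference 1.59 ± 0.13). Irf4, also a factor of activated T cells, was the other higher member, and Mzb1, a chaperone of antibody assembly, was the lower one (difference -2.04 ± 0.14). The summed signal of the 7 markers on the array was 14063 and 13168 in wild type and 21205 and 19840 in Nrdp1-/-. Without Jchain the sum was 10296 and 10430 against 10776 and 10839. Igha, the heavy chain of immunoglobulin A, was named after its values were seen and read 310.2 and 279.7 against 3506 and 1803 (difference 3.07 ± 0.16). Limma without the trend called Igha (adjusted p = 0.0388) but none of the 6, and Tnfrsf17 was below the array median on all 4 arrays.

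Myeloid markers were mostly higher in the knockout, more so at the earlier time. Of 15 tested, 7 were called higher in Nrdp1-/- and none lower, with a median difference of 0.95. At both times 10 of the 15 were higher and 2, Fcgr3 and Ctss, were lower. Lyz1, which encodes a lysozyme, read 669 and 843 in wild type and 4154 and 1441 in Nrdp1-/-, a difference of 2.63 at 4 h and 0.77 at 8 h. The median over the list was 1.35 at 4 h and 0.54 at 8 h, against 1.75 in untreated cells. The summed signal of 20 markers was 12178 and 13096 in wild type and 19137 and 12996 in Nrdp1-/-. Ctss, a lysosomal protease gene of many antigen-presenting cells, supplied most of it in wild type, and without Ctss the sum was 2830 and 2605 against 9960.4 and 3858. Itgam, Ngp, Camp and Ltf were below the array median on all 4 arrays, and none of the 7 was called without the trend. Of 5 basophil and mast cell markers 3 were higher, led by the protease gene Mcpt8 (101 and 102 against 432 and 338, difference 1.87 ± 0.28), and the summed signal of 7 was 631 and 532 in wild type against 1396 and 1214. Of 3 tested natural killer cell markers, 1 was higher, Nkg7, which CD8+ T cells also express, and the median was 0.44. The summed signal of the 8 on the array was 3279.5 and 3806 in wild type and 6360.5 and 7181 in Nrdp1-/-, and without Nkg7 it was 797 and 677 against 876 and 648. Ncr1 and Klra1 were below the array median on all 4 arrays. In bulk RNA, more or fewer cells of a type and more or less RNA per cell cannot be told apart. The part of these other cells in the gene differences below was not tested.

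**Figure D1:**
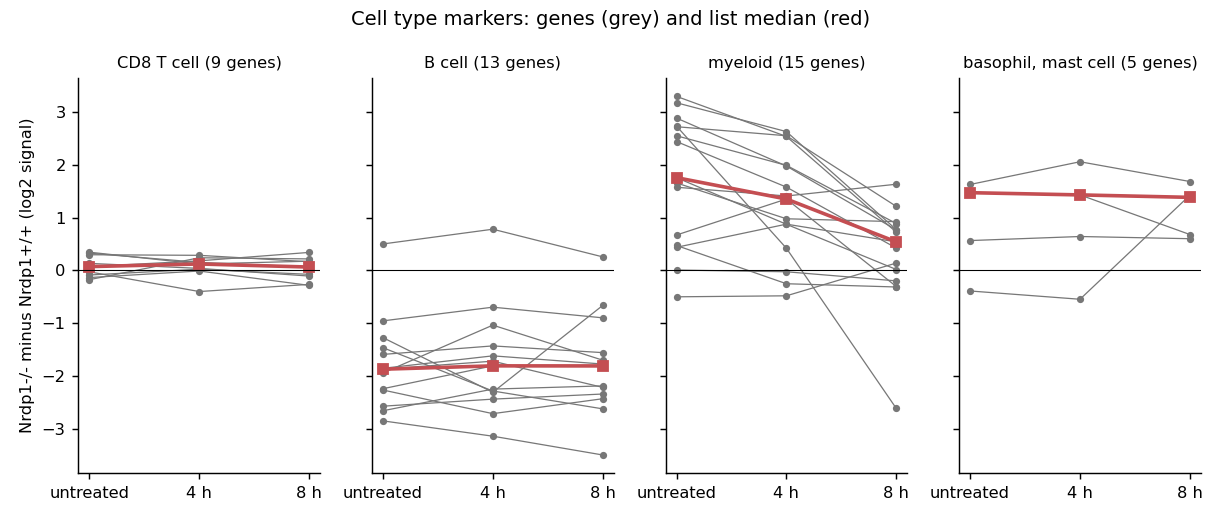
Difference between Nrdp1-/- and Nrdp1+/+ (log2 signal, vertical axis) in untreated cells and at 4 h and 8 h, each grey line being 1 gene and the red line the list median, for markers of CD8 T cells (9 genes), B cells (13), myeloid cells (15) and basophils or mast cells (5). The CD8 T cell genes lie near 0, the B cell median stays near -1.8, and the myeloid median falls from 1.75 in untreated cells to 0.54 at 8 h.

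Across the transcriptome, 282 genes (2.70% of those tested) were called higher and 279 (2.67%) lower in stimulated Nrdp1-/- cells. In all, 1418 genes had an unadjusted p under 0.05. The called genes had median differences of 0.84 and -0.76, and 558 of the 561 had the same sign at both times. Both knockout arrays lay above both wild-type arrays for 1926 genes (18.4%) and below them for 2261 (21.6%). At least 2-fold differences at both times were found for 93 genes upward (0.889%) and 108 downward (1.03%), of which 71 and 90 were called. Limma without the trend called 28 genes higher (0.268%) and 46 lower (0.440%), of which 23 and 43 were among the calls of the fit with the trend. Without the Nrdp1-/- 4 h array the counts were 68 higher and 121 lower. Without the Nrdp1-/- 8 h array they were 86 and 89, without the wild-type 4 h array 118 and 73, and without the wild-type 8 h array 114 and 94, each fitted on 3 arrays without the time term. Of the genes called higher, 257 were also higher in the untreated knockout (median difference there 0.63), and of those called lower 254 were lower there (median -0.58). Across genes, which are not independent replicates, the differences at 4 h and 8 h correlated with r = 0.42.

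**Figure D2:**
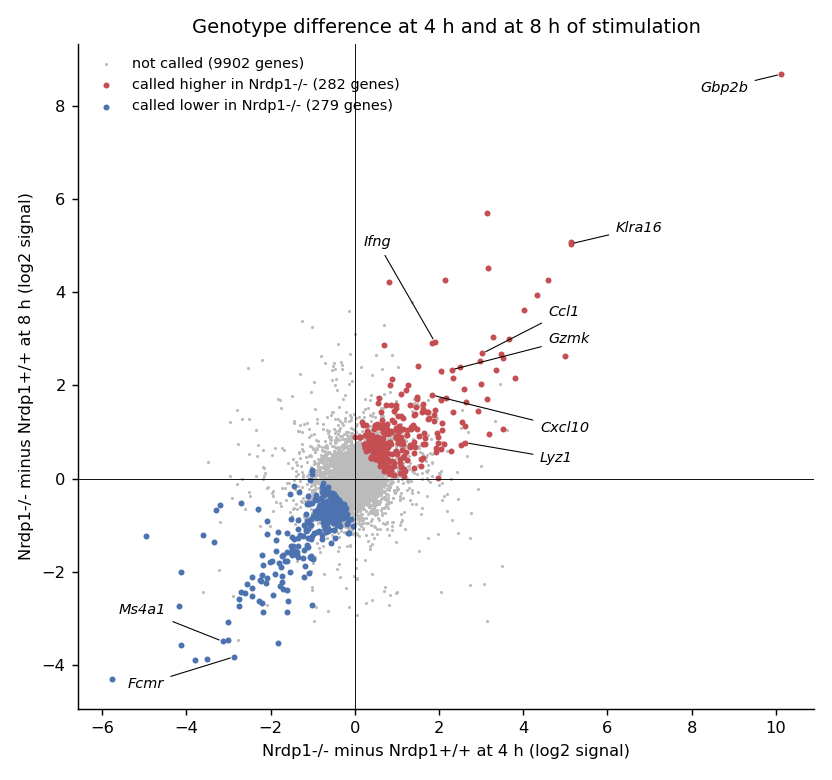
Difference between Nrdp1-/- and Nrdp1+/+ at 4 h (horizontal) and at 8 h (vertical), in log2 signal, with 1 point for each of 10463 genes. The 282 genes called higher (red) and 279 called lower (blue) fall along the diagonal, with Gbp2b farthest out at 10.12 and 8.68, against wild-type signals below the array median.

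The cytokine genes of effector T cells were mostly higher in the knockout. Of 17 tested, 8 were called higher and 2 lower, with a median difference of 0.60 against -0.01 for all genes. Ifng, the gene for interferon-gamma, read 1011 and 825 in wild type at 4 h and 8 h and 3786 and 6323 in Nrdp1-/-. It decreased from 4 h to 8 h in wild type and increased in the knockout, so the difference was 1.90 at 4 h and 2.93 at 8 h, or 2.42 ± 0.14 over both times (adjusted p = 1.26e-64). Without the trend its adjusted p was 0.0778. In untreated cells the difference was 1.43.

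Other secreted and membrane-bound cytokines followed with smaller differences. Tnf read 819.8 and 822 in wild type and 1919 and 1231 in Nrdp1-/- (difference 0.90 ± 0.15), larger at 4 h than at 8 h. Csf2, which encodes the growth factor GM-CSF, read 429 and 277 against 673 and 663 (difference 0.95 ± 0.18) and held its level in the knockout where wild type declined. Among the ligands of the TNF family, Tnfsf9 (4-1BB ligand) differed by 1.22 ± 0.36 and Fasl, the death ligand of killer cells, by 0.91 ± 0.18. Lif, a cytokine of the interleukin-6 family, differed by 1.15 ± 0.29, but its second probe set went the other way at 4 h (-3.16). Il10, an inhibitory cytokine, was lower: it read 225 and 145 in wild type and 70.4 and 62.6 in Nrdp1-/- (difference -1.39 ± 0.40). Both knockout values were close to the array median, and the one at 8 h was below it, so the size of this difference is uncertain. Tnfsf11, the ligand RANKL, was lower as well (681 and 592 against 271 and 482, difference -0.80 ± 0.18), mainly at 4 h.

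Il2, the T cell growth factor and the best known product of CD28 costimulation, was not among the called genes. It read 2632 and 1450.0 in wild type and 3289 and 1603 in Nrdp1-/-. The genotypes overlapped, the decline from 4 h to 8 h was present in both, and the difference of 0.23 ± 0.14 was not called (adjusted p = 0.506). Without the trend none of the 10 called cytokine genes was called, and when 1 array was left out, each in turn, 1 to 5 were higher and 0 to 1 lower.

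Chemokine genes, whose products attract other leukocytes, were higher in 8 of 10 cases, and none was lower. Their median difference was 1.23, with 0.68 at 4 h and 1.38 at 8 h, although only 5 of the 10 had the larger difference at 8 h (6 under quantile normalization, 4 under median centring). Of the 8 called, 5 had the larger difference at 4 h and 3 at 8 h. Myeloid markers had their larger median at 4 h (1.35, against 0.54 at 8 h), and their part in the chemokine genes was not tested. Ccl1 read 29.6 and 38.7 in wild type, below the array median, and 274 and 274 in Nrdp1-/-, which is at least 3.95-fold higher (difference 2.86 ± 0.43). Cxcl9 and Cxcl10 encode ligands of CXCR3 that interferon-gamma is known to induce. Cxcl9 read 129 and 121 against 803 and 471 (difference 2.26 ± 0.23). Cxcl10 read 821 and 658 against 2941 and 2289 (difference 1.81 ± 0.14). For both, each knockout array stood well above each wild-type array. Ccl9, also made by myeloid cells, read 279 and 264 against 862 and 815 (difference 1.61 ± 0.18).

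Chemokines that activated CD8+ T cells themselves make in large amounts had smaller differences. Ccl4 read 8358 and 4526 in wild type and 13440.0 and 9133 in Nrdp1-/- (difference 0.85 ± 0.14). Ccl3, Xcl1 and Ccl5, the other 3 called members, differed by 0.81, 0.73 and 0.44, and for Ccl3 and Xcl1 the genotypes overlapped because the wild-type value at 4 h exceeded the knockout value at 8 h. Ccl1, Ccl9, Cxcl9 and Cxcl10 were the 4 also called without the trend. When 1 array was left out, 3 to 8 of the 10 were called.

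**Figure D3:**
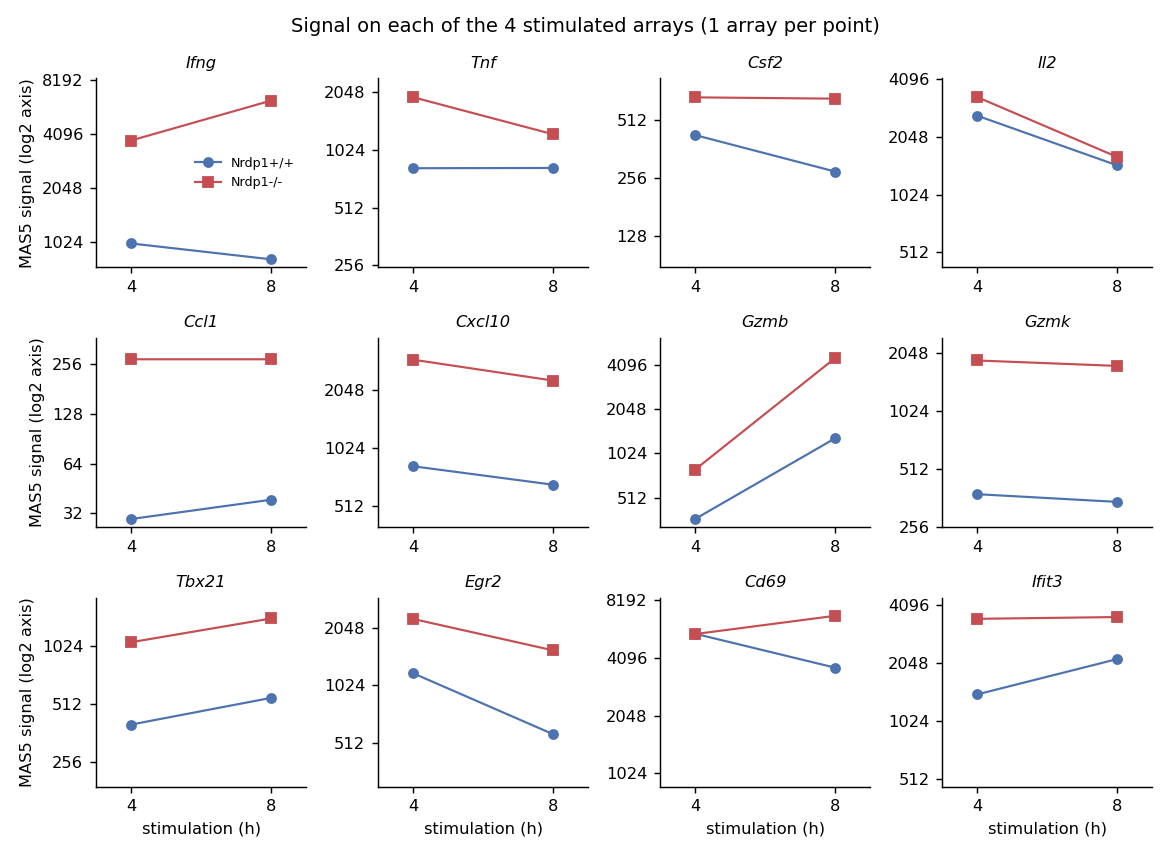
MAS5 signal (log2 axis) at 4 h and 8 h of stimulation for 12 genes, each point being 1 array, Nrdp1+/+ in blue circles and Nrdp1-/- in red squares. Ifng separates further from 4 h to 8 h, Gzmb increases in both genotypes, Il2 lies close together, Cd69 starts at the same signal and separates at 8 h, and for Ifit3 wild type gains on the knockout.

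The granule and killing genes were higher in 6 of 12 cases and lower in none, with a median difference of 0.46 that was nearly the same at 4 h (0.46) and 8 h (0.49). Gzmk, one of the granzyme proteases, read 378 and 345 in wild type and 1875 and 1757 in Nrdp1-/-. Its difference of 2.32 ± 0.16 was as large in untreated cells (2.20), and it was the only member of the list called without the trend (adjusted p = 0.0262). Gzma read 223 and 337 against 708 and 670.1 (difference 1.31 ± 0.19). Gzmb, the granzyme that is strongly induced by activation, read 367 and 1299 in wild type and 795 and 4559.8 in Nrdp1-/- (difference 1.46 ± 0.15). Both genotypes increased it between the times, and the knockout value at 4 h lay below the wild-type value at 8 h.

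Prf1, the pore-forming perforin, read 240.0 and 246 in wild type and 491 and 422 in Nrdp1-/- (difference 0.89 ± 0.21), although a second, dimmer probe set was lower in the knockout at 8 h (-1.17). Nkg7, a protein of cytotoxic granules, read 2482 and 3129 against 5484 and 6533 (difference 1.10 ± 0.13). In untreated cells Nkg7 differed by 0.11. The lysosomal protease gene Ctsw completed the called members (difference 0.52). Granule proteins and components of their exit, such as Srgn, Lamp1 and Ctsc, had differences between 0.03 and 0.22 and were not called. With 1 array left out, 3 to 4 of the 12 were called.

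Transcription factors that steer effector differentiation included 7 called higher and 1 called lower of 17. Tbx21 encodes T-bet, a T-box factor that drives Ifng and the cytotoxic program. It read 402 and 553 in wild type and 1077 and 1432 in Nrdp1-/-, with all knockout values above all wild-type values (difference 1.39 ± 0.16). Its adjusted p without the trend was 0.0541. Eomes, the second T-box factor of CD8+ T cells, read 1875 and 1794 against 2589.6 and 3763 (difference 0.77 ± 0.14), with 0.46 at 4 h and 1.07 at 8 h.

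Irf8 read 1148 and 952 in wild type and 2286 and 1992 in Nrdp1-/- (difference 1.03 ± 0.14), while Irf4, whose level follows the strength of the receptor signal, read 3609.8 and 2828 against 4536 and 4791 (difference 0.54 ± 0.13). Bhlhe40 differed by 0.93, and Id2, an inhibitor of E proteins that favours effector cells, by 0.65. Its other 2 probe sets, both above the array median, differed by 0.70 and -0.08. Its counterpart Id3, linked to the naive and memory state, was lower: 2389 and 1979 in wild type and 1631 and 1304 in Nrdp1-/- (difference -0.57 ± 0.14). Runx3 was the remaining called member (difference 0.43). None of the 8 was called without the trend, and with 1 array left out 3 to 5 were called higher.

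The promoters of 4 of these genes are shown because their products, 2 secreted and 2 of the cytotoxic granule, had the largest positive differences of their kinds. Each is 300 bases, 250 before and 50 after the RefSeq start of transcription on GRCm38.p6, written 5' to 3' on the gene's strand. Capitals mark matches on either strand to GGAAA (the core bound by NFAT), TGANTCA (AP-1), AGGTG (a T-box core), GCGNGGGCG (Egr) or AGGAAG (Ets, which shares GGAA with the NFAT core).
The Ccl1 window is chr11:82179763-82180062 on the minus strand.
Ccl1: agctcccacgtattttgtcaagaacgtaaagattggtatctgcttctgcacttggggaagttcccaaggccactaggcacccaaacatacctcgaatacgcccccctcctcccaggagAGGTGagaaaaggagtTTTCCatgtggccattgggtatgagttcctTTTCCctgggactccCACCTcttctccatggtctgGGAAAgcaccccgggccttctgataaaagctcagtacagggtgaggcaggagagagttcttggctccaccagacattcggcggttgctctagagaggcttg
The Ifng window is chr10:118440796-118441095 on the plus strand.
Ifng: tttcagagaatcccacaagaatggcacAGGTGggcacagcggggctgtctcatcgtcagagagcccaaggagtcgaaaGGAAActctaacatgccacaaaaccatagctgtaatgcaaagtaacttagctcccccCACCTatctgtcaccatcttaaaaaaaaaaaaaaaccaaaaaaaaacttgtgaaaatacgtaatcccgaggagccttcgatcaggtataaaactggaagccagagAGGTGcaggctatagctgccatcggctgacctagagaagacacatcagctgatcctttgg
The Gzmk window is chr13:113180916-113181215 on the minus strand.
Gzmk: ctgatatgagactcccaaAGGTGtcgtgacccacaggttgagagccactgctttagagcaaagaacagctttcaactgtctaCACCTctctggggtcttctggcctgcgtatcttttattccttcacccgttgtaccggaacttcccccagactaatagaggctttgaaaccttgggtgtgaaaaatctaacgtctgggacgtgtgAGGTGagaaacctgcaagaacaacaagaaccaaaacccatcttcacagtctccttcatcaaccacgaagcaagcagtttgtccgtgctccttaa
The Gzmb window is chr14:56262285-56262584 on the minus strand.
Gzmb: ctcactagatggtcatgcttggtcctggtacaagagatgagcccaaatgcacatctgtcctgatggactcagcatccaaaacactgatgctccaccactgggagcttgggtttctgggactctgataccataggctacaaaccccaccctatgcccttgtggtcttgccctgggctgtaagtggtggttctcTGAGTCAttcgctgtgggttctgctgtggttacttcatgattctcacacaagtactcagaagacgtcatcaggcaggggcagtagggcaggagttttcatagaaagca

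The Ccl1 window held 3 NFAT cores and 2 T-box cores. That of Ifng held 1 NFAT core and 3 T-box cores, the nearest at -10 from the start. Gzmk had 3 T-box cores, and Gzmb an AP-1 match at -58. Neither Egr nor Ets letters were found in these windows. Such short words are common: GGAAA occurred in 61.3% and AGGTG in 51.7% of all 27025 promoter windows, TGANTCA in 7.93%, GCGNGGGCG in 5.55% and AGGAAG in 35.1%. The AP-1 letters occurred in 12.3% of the 219 genes called higher that had a window, in 4.07% of the 221 called lower and in 4.65% of the 8555 tested. For GGAAA the 3 shares were 63.0%, 62.0% and 59.3%, and for AGGTG 47.9%, 57.0% and 49.2%. For GCGNGGGCG they were 8.22%, 7.24% and 10.4%, and for AGGAAG 36.5%, 38.5% and 33.3%. Matches are descriptions of the letters, not of binding.

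Immediate early genes, the first to respond to receptor signals, were called higher in 10 of 22 cases and lower in none, with a median difference of 0.42. Egr2, a factor that follows calcium and NFAT signals, read 1186 and 571 in wild type and 2271 and 1558 in Nrdp1-/- (difference 1.19 ± 0.15). Fos, a subunit of AP-1, read 906 and 557 against 1875 and 1225 (difference 1.09 ± 0.15). Both declined from 4 h to 8 h in both genotypes, and both knockout values stayed above both wild-type values. Egr3 and Egr1 differed by 0.92 and 0.73, and a second, dim probe set of Egr3 went the other way at 8 h.

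The orphan nuclear receptor Nr4a1 (Nur77), a widely used reporter of receptor signal strength, read 4291 and 2538 in wild type and 6434 and 3939 in Nrdp1-/- (difference 0.61 ± 0.13). Its genotypes overlapped, since the wild-type value at 4 h exceeded the knockout value at 8 h. Nr4a3 differed by 0.83. Myc, which drives growth of activated T cells, read 4473 and 5113 against 5854 and 6960.1 (difference 0.42 ± 0.13). None of the 10 was called without the trend or without the time term, and with 1 array left out 0 to 7 were called, so these calls rest on pairing the arrays by time and on the trend. Of the 22 tested, 16 were positive at both times, as 2769 of all 10463 genes were. In untreated cells the list median was 0.39.

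Surface molecules of activated T cells gave 3 higher and 1 lower call among 14. Cd69, the earliest of them, read 5458 and 3633 in wild type and 5437 and 6769 in Nrdp1-/-. At 4 h the genotypes were nearly equal (-0.01) and at 8 h wild type had declined while the knockout had increased (0.90), so the call (difference 0.45 ± 0.13) rests on 1 pair of arrays. Il2ra, the high-affinity subunit of the interleukin-2 receptor, read 545 and 916 against 804 and 1702 (difference 0.72 ± 0.15). Tnfrsf9 (4-1BB) differed by 0.65. Itgae, the integrin CD103 of naive and resident CD8+ T cells, was lower (difference -0.53). None of the 4 was called without the trend, and with 1 array left out 0 to 1 were called higher.

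Of 8 inhibitory receptors and ligands, 2 were higher. Cd274, which encodes PD-L1, read 3427 and 4885 in wild type and 7709 and 5070.5 in Nrdp1-/-, a difference of 1.17 at 4 h and 0.05 at 8 h, and Cd160 differed by 0.76. Pdcd1, Ctla4 and Btla had differences of 0.01, -0.05 and -0.01 and were not called. Neither call held without the trend, and with 1 array left out 0 to 1 did. Among 21 cytokine and chemokine receptors, 4 were higher and 1 was lower. Il10ra read 311 and 316 against 837 and 685 (difference 1.26 ± 0.18), but the mean over its 3 probe sets gave -0.15. Il15ra, which presents interleukin-15, differed by 0.94, and the interleukin-18 receptor genes Il18rap and Il18r1 by 0.71 and 0.53. Ccr9, the gut-homing receptor of naive CD8+ T cells, was lower at both times: 5774 and 3786 in wild type and 2588 and 1792 in Nrdp1-/- (difference -1.12 ± 0.13). None of the 5 was called without the trend, and with 1 array left out 1 to 2 were called higher and 0 to 1 lower.

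Genes of memory-like and natural killer-like CD8+ T cells gave 8 higher and 1 lower call of 15, of which Il18rap, Il18r1, Ccl5, Eomes, Nkg7 and Fasl are described with other lists. Klrg1, a receptor of effector cells that have divided often, read 104 and 134 in wild type and 671 and 428 in Nrdp1-/- (difference 2.14 ± 0.24). Klrk1, the activating receptor NKG2D, read 255 and 162 against 506 and 472 (difference 1.25 ± 0.22). Klra7, one of the closely similar Ly49 receptors, was lower: 153 and 184 in wild type and 42.7 and 54.7 in Nrdp1-/-, below the array median, which is at least 2.48-fold lower. It was the only member called without the trend, and with 1 array left out 2 to 5 were called higher. The list median was already 0.35 in untreated cells, which were labelled naive.

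Of 23 tested genes of the naive and quiescent state, 1 was higher and 2 were lower, with a median of -0.17, and 13 were lower at both times, as 3061 of all 10463 genes were. None of the 3 was called without the trend, and with 1 array left out none was higher and 0 to 1 lower. S1pr1, the receptor by which T cells leave lymphoid organs, read 1969.6 and 2351 in wild type and 1376 and 1333 in Nrdp1-/- (difference -0.67 ± 0.14). Ccr9 is the other one. Igfbp4, a gene of naive T cells, was higher (difference 0.69). Il7r, the interleukin-7 receptor, read 26908 and 26315 against 26937 and 23206 and was not called (difference -0.09 ± 0.15). Klf2, the quiescence factor upstream of S1pr1, read 13066 and 13451 against 13519 and 11207 and was not called either (difference -0.11 ± 0.14).

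Interferon-stimulated genes were higher in 11 of 27 cases and lower in none. Their median difference was 0.46, with 0.65 at 4 h and 0.19 at 8 h, and 25 of the 27 had the larger difference at 4 h. Under quantile normalization 25 did, and with arrays centred on their medians 27. Over all genes 5769 of 10463 did. Ifit3, an antiviral protein, read 1406 and 2147 in wild type and 3475 and 3549.8 in Nrdp1-/- (difference 1.30 at 4 h and 0.72 at 8 h). Iigp1, an interferon-inducible GTPase named after its values were seen, read 7315 and 12086 against 15708 and 14256.

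In both genes wild type increased from 4 h to 8 h while the knockout changed little. The wild-type signal increased over that time for all 11 called genes, as it did for 155 of all 282 genes called higher. For Usp18 the increase was slight (981 to 987), and the knockout declined (1952 to 1479). Mx1, a dynamin-like antiviral GTPase, read 87.6 and 111 in wild type and 332 and 265 in Nrdp1-/- (difference 1.55 ± 0.30). Oas1a and Ifit1 differed by 0.98 and 0.93, and Usp18, which removes ISG15 from proteins, by 0.78. In untreated cells the list median was 0.19. None of the 11 was called without the trend, and with 1 array left out 1 to 7 were. Myeloid markers also had their larger difference at 4 h (medians 1.35 and 0.54). The part of those cells in the interferon-stimulated genes was not tested.

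**Figure D4:**
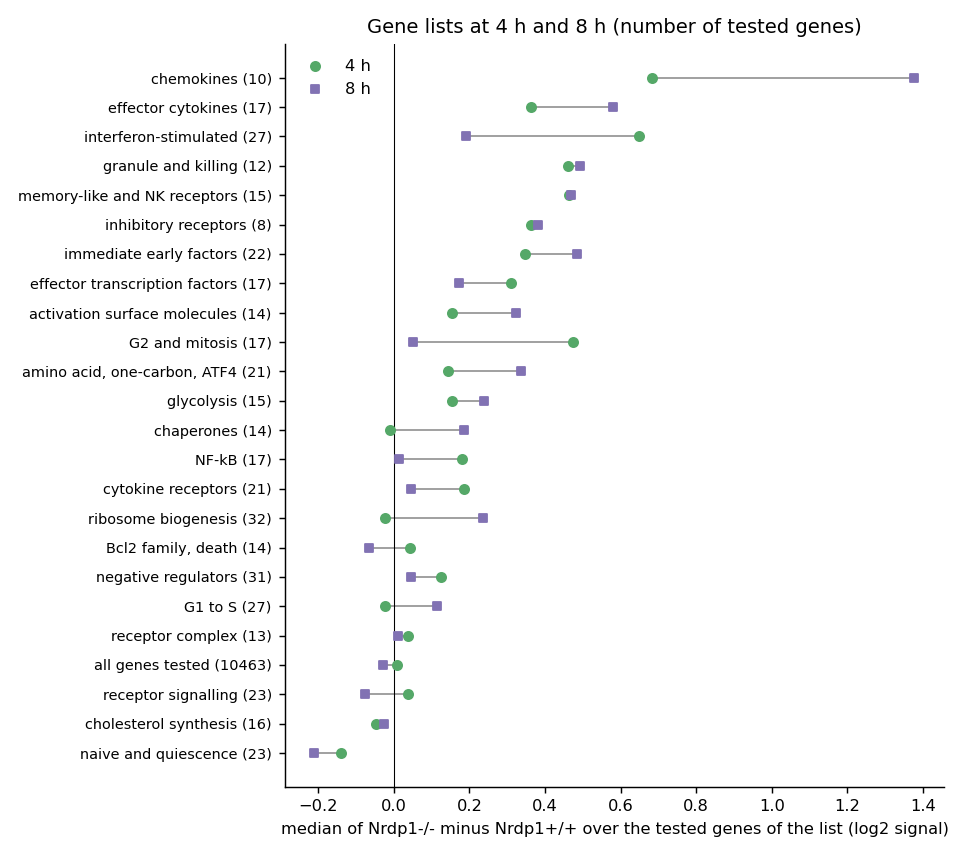
Median difference between Nrdp1-/- and Nrdp1+/+ (log2 signal, horizontal axis) over the tested genes of 23 lists and over all genes, at 4 h (green circles) and 8 h (purple squares), with the number of genes in brackets. Chemokines reach 1.38 at 8 h, interferon-stimulated genes fall from 0.65 at 4 h to 0.19 at 8 h, and all genes lie at 0.01 and -0.03.

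Transcripts of the receptor machinery itself gave 1 call. Of 13 genes of the receptor complex and its partners, none was higher and Slamf6, a costimulatory receptor, was lower (difference -0.42). Of 23 genes of the signalling cascade below it, including Lat, Lcp2, Plcg1, Prkcq and Nfatc2, none was called in either direction, and their median was -0.02. Zap70 read 2275 and 2019.9 in wild type and 1925 and 2158 in Nrdp1-/-, and the difference of -0.07 ± 0.14 was not called (adjusted p = 0.941). Its 2 dimmer probe sets differed by 0.35 and -0.38. The array measures transcripts, not the amount, phosphorylation or ubiquitination of the protein.

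The phosphatase genes tied to Zap70 were Ubash3a and Ubash3b. Ubash3a read 587 and 549 in wild type and 532 and 577 in Nrdp1-/- (difference -0.03 ± 0.17, not called). Ubash3b read 908 and 538 against 535 and 462. On this probe set, the brightest of 3, all knockout values were below the wild-type values. Its difference of -0.49 ± 0.17 missed the threshold (adjusted p = 0.0718). A second probe set of Ubash3b read 596 and 602 in wild type against 285 and 348 in Nrdp1-/-, a difference of -0.92. The third differed by -0.19. Of 11 genes linked to Nrdp1, among them Usp8, which stabilises it, and its reported substrates Birc6, Myd88, Tbk1 and Erbb3, only Cebpb was called. It encodes a factor of myeloid and inflammatory genes and differed by 0.47 ± 0.15. Of 31 negative regulators of T cell activation, 2 were higher: Cish, a feedback inhibitor induced by cytokines (579 and 729 against 809 and 1604, difference 0.81 ± 0.16), and Socs3 (difference 0.44). Cblb, Ptpn22, Dgkz and Dusp2 were among the 29 not called. Neither of the 2 was called without the trend, without the time term or with the mean of the probe sets, and with 1 array left out 0 to 2 were. Of 17 genes of the NF-kB pathway, Icam1 alone was higher (difference 0.44). Slamf6, Cebpb and Icam1 were not called without the trend.

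Growth and metabolism gave calls for single genes. Of the calls in the amino acid, glycolysis, cell cycle and cell death lists below, none was made without the trend. With 1 array left out, 1 to 2 genes of the amino acid list were higher, 0 to 1 of the G1 to S list in either direction, and none of the other 3 lists. Of 21 genes of amino acid supply, one-carbon metabolism and the Atf4 response, 3 were higher. Asns, asparagine synthetase, read 634 and 877 in wild type and 1738 and 2545 in Nrdp1-/- (difference 1.49 ± 0.15). Its difference in untreated cells was 1.74, and its adjusted p without the trend was 0.0509. Bcat1, which degrades branched-chain amino acids, and the mitochondrial folate enzyme gene Mthfd2 differed by 0.54 and 0.46. Of 15 glycolysis genes only the lactate transporter gene Slc16a1 was higher (difference 0.44). Among 16 genes of cholesterol synthesis, 14 chaperone genes and 32 genes of ribosome biogenesis, limma called none.

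The ribosome biogenesis genes had larger differences at the later time, a description with no test. Their median was -0.02 at 4 h and 0.24 at 8 h, and 27 of 32 had the larger value at 8 h, as 29 did under quantile normalization and 24 under median centring. Over all genes 4694 of 10463 had it, and 2875 under median centring, which moves the median difference at 4 h from 0.01 to 0.12 and that at 8 h from -0.03 to -0.10. In the G1 to S list, 2 of 27 genes were higher and 1 lower. Cdkn1a, the p53-responsive inhibitor p21, read 244 and 277 in wild type and 539.6 and 489.5 in Nrdp1-/- (difference 0.97 ± 0.20). Its second, dimmer probe set, above the array median on all 4 arrays, differed by 1.05 at 4 h and 0.07 at 8 h. Cdk6 differed by 0.48. Cdk2 was lower at 4 h (-1.07) and level at 8 h (-0.03). Of 17 genes of G2 and mitosis, Mki67 alone was called (difference 0.64), and of 14 genes of cell death and survival only Bcl2, which protects from death, was higher (2447 and 3925 against 3523 and 6445).

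The largest single differences lay mostly outside these lists. Gbp2b, an interferon-inducible guanylate-binding protein with close relatives, read 4.18 and 16.1 in wild type and 9598 and 8446 in Nrdp1-/-, which is at least 128-fold higher. It was also higher in untreated cells (28.9 against 884). BC018473 read 47.7 and 40.5 against 1820.2 and 1521 (at least 23.7-fold) and Klra16, another Ly49 receptor, 36.1 and 31.0 against 1407 and 1160.4 (at least 18.2-fold). All 3 were below the array median on both wild-type arrays and far above it on both knockout arrays. For members of the Ly49 and guanylate-binding families a probe set may also bind a relative's transcript, so the identity is uncertain.

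Both members of a pair of sialyltransferases that act on O-linked sugars were higher. St6galnac1 read 58.6 and 70.7 in wild type and 789 and 598 in Nrdp1-/- (difference 3.33 ± 0.26), and St6galnac2 was at least 5.42-fold higher. Acod1, the enzyme that makes itaconate in activated macrophages, read 46.8 and 5.60 against 452 and 228 (at least 4.63-fold). In untreated cells it was below the array median in both genotypes. The remaining genes of the 10 with the largest positive difference were Ccnb1ip1, Cpne4, Arntl2 and Ifi44l, whose bounds were 3.52, 2.28, 2.12 and 1.49-fold.

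Among the largest negative differences were genes of B cells. Fcmr, the Fc receptor for immunoglobulin M, read 2106 and 1342 in wild type and 284 and 90.3 in Nrdp1-/- (difference -3.35 ± 0.18), next to Ms4a1 and Igll1, a surrogate light chain of B cell precursors (at least 1.87-fold lower). Adm, the peptide hormone adrenomedullin, read 759 and 502 against 37.8 and 72.1 (difference -3.45 ± 0.29). Sspn, sarcospan, was at least 7.36-fold lower and Nid1, a basement membrane protein, at least 2.56-fold. AF067061, Fzd6, Lmo7 and Creb3l3 completed the 10 with the largest negative difference, at least 2.99, 3.22, 1.83 and 1.58-fold lower. With the exception of Creb3l3, which was below the array median in both genotypes at rest, these 10 were also lower in untreated knockout cells.

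The genes that neighbour Rnf41 on chromosome 10 were examined because they lie beside the disrupted gene. Of 32 tested among the 20 on either side, 5 were higher (15.6%, against 2.70% of all genes) and 1 lower (3.1%, against 2.67%). The 5 are Pan2, Cnpy2, Cs, Coq10a and Ankrd52, which lie next to each other in gene order, from 7 to 3 genes before Rnf41. Cs, the citrate synthase of the Krebs cycle, read 5033 and 5270.3 in wild type and 8661 and 9002 in Nrdp1-/- (difference 0.78 ± 0.13). Cnpy2 read 2682 and 2883 against 4294 and 5776 (difference 0.84 ± 0.13). Pan2, a subunit of a deadenylase, Coq10a, a coenzyme Q binding protein, and Ankrd52 differed by 0.63, 0.59 and 0.98. All 5 were also higher in untreated knockout cells, with differences from 0.57 to 1.26. Nabp2, the gene next to Rnf41 on that side, differed by 0.89 ± 0.30 and missed the threshold (adjusted p = 0.0619). On the other side Cdk2, 14 genes away, was the only one called. None of the 6 was called without the trend, and with 1 array left out 2 to 3 were called higher.

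**Figure D5:**
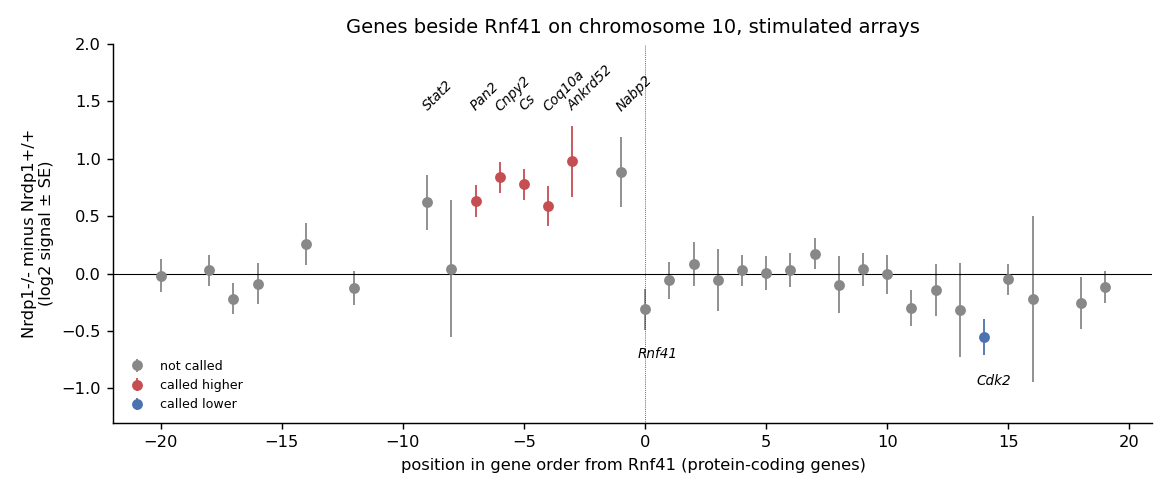
Difference between Nrdp1-/- and Nrdp1+/+ on the stimulated arrays (log2 signal ± SE, vertical axis) for the tested genes beside Rnf41, by position in gene order (horizontal axis), called genes in red (higher) or blue (lower). The 5 genes called higher lie side by side from 7 to 3 genes before Rnf41, and Cdk2, called lower, lies 14 genes after it.

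Whether a genotype difference under stimulation was another one than at rest was tested on all 6 arrays with 10829 genes. It was more positive for 10 genes (0.0923%) and more negative for 14 (0.129%). For Cxcl10 the untreated cells of both genotypes were below the array median (60.8 in wild type and 62.8 in Nrdp1-/-), so the change of 1.77 ± 0.31 (adjusted p = 2.89e-05) has no measured starting value. Irf8 read 193 and 163 at rest, where the knockout was the lower, and was higher in the stimulated knockout (change 1.27 ± 0.28). On its second, dimmer probe set the knockout was the higher at rest (62.0 in wild type, below the array median, and 97.4 in Nrdp1-/-). That probe set differed by 0.82 at both 4 h and 8 h, so the size of the change depends on the probe set. Tnfsf11, also below the array median at rest in both genotypes, went the other way (change -2.66 ± 0.49). Neither limma without the trend nor limma with the spread of the additive model called any gene in this test, where 453 and 152 genes had an unadjusted p under 0.05. For Ifng the change was 0.99 ± 0.30, not called, so its larger difference under stimulation (2.42 against 1.43 at rest) is not shown to be another one.

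Changes of the genotype difference between 4 h and 8 h have 1 array a side and no test. Among the genes at or above the 75th percentile of the array on at least 2 of the 4 stimulated arrays, the largest increases were those of Cdkn1b (-0.94 at 4 h and 0.59 at 8 h), the inhibitor p27 that is lost when T cells enter the cycle, and of Chrac1 (-0.62 and 0.90). On the brightest probe set of both, the wild-type signal declined between the times and the knockout signal increased. Cdkn1b read 6614 and 3591 in wild type and 3449.6 and 5411 in Nrdp1-/-. A second, dimmer probe set of Cdkn1b differed by 0.51 and 0.57 and showed no such change. The second probe set of Chrac1 read 1966 and 1813 in wild type and 2055 and 2108 in Nrdp1-/-. Its differences were 0.06 and 0.22, without a change of sign. Adm, Wdr70, Scyl2 and Zfp958 followed, the last 3 with a sign that changed between the times. Other probe sets of Scyl2 above the array median differed by -0.92 and 0.16, and by 0.03 and 0.11. The knockout value of Adm at 4 h was below the array median. Its second probe set, below that median on both knockout arrays, differed by -4.30 and -4.71 and showed no increase. The largest decreases were those of Lyz1 and Lyz2, whose transcripts are closely similar, then Bivm (0.52 and -1.20). Tnfrsf14, the receptor HVEM, read 50.4 and 113 in wild type and 757 and 517 in Nrdp1-/-, where the wild-type value at 4 h was below the array median. Gm4951 and Gbp2b completed this group, but Gbp2b was below the array median on both wild-type arrays, so the size of its change was not measured.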

How the data were processed

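Per the submitters' processing notes, MAS5 made the deposited values, which are signal intensities on a linear scale; its version and settings are not given in the sources used here. The values showed the same trimmed mean on all arrays, so a shift of most transcripts would be hidden. Of 45101 probe sets, 64 controls were left out, 34945 had 1 gene symbol in the platform annotation, 932 had several and 9160 were unlisted; 34741 matched RefSeq (GRCm38.p6) by Entrez identifier with 0 symbols changed. Each of 18193 genes was represented by its brightest probe set over 6 arrays. Values were taken as log2(signal + 4.45), the 10th percentile, which understates the change of dim genes. Genes reaching the array median on at least 2 of the 4 stimulated arrays were kept, 10463 in all.

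Limma 3.58.1 in R 4.3.3 (lmFit, eBayes with intensity trend) fitted time and genotype to these arrays, with 1 residual and infinite prior degrees of freedom; without the trend the prior had 3.28. The interaction used all 6 arrays. The main fit was tested on simulated data. Their spread followed brightness alone, as that fit assumes, so the assumption itself was not tested. Named were a fixed set, up to 5 called genes a list and direction, the 10 largest differences a direction, up to 6 genes a direction for the change between times and for the interaction, and called neighbours of Rnf41; further genes were named after their values were seen. The comparison and lists were chosen with earlier results of these data known. Alternatives were scaling, pseudocount, filter, probe set, variance model, time term, 6 arrays, a 2-fold minimum and leaving out arrays. Ratios of 3' to 5' probe sets were 0.815 to 0.894 (Gapdh) and 1.39 to 1.53 (Actb) on the stimulated arrays.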

Additional observations from a re-analysis of the deposited data

Results flagged for a closer look

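Of the 24 genes whose genotype difference in stimulated cells departed from that in untreated cells in limma on all 6 arrays (Benjamini-Hochberg adjusted p under 0.05), the 6 with the largest fitted change in each direction are given. None of them was called by limma without the intensity trend or with the spread of the additive model, so each rests on the spread being estimated from brightness. The change is the stimulated minus the untreated difference, on the log2 scale.

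For Ccl1 the fitted change was 5.69 ± 1.02. At rest it read 72.9 in wild type and 6.41 in Nrdp1-/-, and under stimulation 29.6 and 38.7 in wild type and 274 and 274 in Nrdp1-/-. Its untreated knockout array and both stimulated wild-type arrays were below the array median, so the size of the change was not measured. Lif, below the array median at rest in both genotypes, changed by 3.86 ± 0.81. The fitted change of Gbp2b was 4.66 ± 0.41, with wild type below the array median at rest and at both times (28.9 at rest, 4.18 and 16.1 under stimulation), so its size was not measured either. Sema7a, a semaphorin of activated T cells, changed by 2.16 ± 0.43, with the untreated knockout below the array median. Cxcl10, below it at rest in both genotypes, changed by 1.77 ± 0.31, and Irf8 by 1.27 ± 0.28. The second probe set of Irf8 was higher in the knockout at rest as well (62.0 in wild type, 97.4 in Nrdp1-/-).

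Rpl39, a ribosomal protein gene, had a fitted change of -4.20 ± 0.61, and its knockout value was 26.4 at 4 h, below the array median, and 246 at 8 h. Rpl39 also lay below the median of the untreated wild-type array. Lpl, lipoprotein lipase, changed by -3.07 ± 0.67, with untreated wild type below the array median, and was higher in the knockout on all 3 occasions. Tnfsf11, below the array median at rest in both genotypes, changed by -2.66 ± 0.49. Pmf1, below the array median on both stimulated knockout arrays, changed by -2.24 ± 0.58, 2610316D01Rik by -2.06 ± 0.49, and Mpeg1, a perforin-like gene of phagocytes, by -1.96 ± 0.33. Mpeg1 differed by 1.31 at rest, -0.14 at 4 h and -1.17 at 8 h. The median difference of the myeloid markers was 1.75, 1.35 and 0.54. The part of myeloid cells in the change of Mpeg1 was not tested.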

How the results depend on the processing

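The counts of genes called in stimulated cells (282 higher, 279 lower) kept within 1.5 times under both other pseudocounts, both other filters and robust estimation. The higher count also did so under quantile normalization (190) and median centring (191), where the lower count was 184 and 154. They fell to 82 and 73 with the mean of all probe sets, to 28 and 46 without the intensity trend, to 76 and 95 without the time term, and to 109 and 106 with a 2-fold minimum. With 1 array left out they ranged from 68 to 118 and from 73 to 121. The interaction counts (10 and 14) were 0 and 0 without the trend and with the additive spread, 3 and 2 after quantile normalization, and 5 and 8 after median centring. No paired analysis was possible because the labels number no replicates; pairing is by time only.

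Of 127 named genes, 39 stayed on their side of the threshold with the same direction without the trend, and 64 without the time term. Leaving out 1 array or 1 time turned the sign of 12 genes, whose values then ranged from -0.24 to 0.095 (Zap70), -0.14 to 0.073 (Ubash3a), -0.28 to 0.75 (Il2), -0.0055 to 0.90 (Cd69), -0.20 to 0.018 (Il7r), -0.26 to 0.049 (Klf2), -0.94 to 0.59 (Cdkn1b), -0.62 to 0.90 (Chrac1), -0.58 to 0.89 (Wdr70), -0.27 to 1.16 (Scyl2), -0.70 to 0.67 (Zfp958) and -1.20 to 0.52 (Bivm). The mean of all probe sets gave Ubash3a 0.012, Il10ra -0.15, Cdkn1b 0.18 and Scyl2 -0.31. The additive model gave Lif -0.14, Tnfsf11 0.081 and Wdr70 -0.062, and median centring Zfp958 0.0053. Where an alternative's construction does not show it, the cause was not tested. With so few arrays precision is limited, most of all for dim genes, whose SE reached 1.27 (Ifi44l).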
